A study of Mus musculus with 33 samples.

Results

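Kidneys collected 5 weeks after lupus-prone mice had been given an adenovirus that expresses interferon alpha were compared with kidneys of untreated mice. The members are the 5 arrays that the labels place at week 5 and the 3 that they call untreated, 8 of the 33 kidney arrays of the series, and they are described across 17097 genes, each measured by its brightest probe set. Both groups were of the cross NZB X NZW F1 (BWF1), a lupus-prone hybrid with no engineered allele, and the study's methods describe the mice as female. The treated mice had received the vector, called ADV_IFNa in the labels and Adv-IFNα in the study, into a vein, and the untreated mice had received neither vector nor interferon. No group here received an adenovirus without the interferon gene, so effects of the virus and of the interferon it makes cannot be told apart. The labels give no age and no collection day for the untreated mice, although the study's methods speak of age-matched controls. The labels number each array as a sample without naming a mouse, so p-values measure the spread between samples. For the gene tests this spread was pooled within the groups of all 33 arrays. The comparison asks how the kidney transcriptome stood at a time between the early interferon response and the later collections of the series.

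Type I interferons bind a shared receptor, and the kinases and STAT proteins behind it drive transcription of the interferon-stimulated genes through a short promoter sequence, the interferon-stimulated response element. Many of these genes encode antiviral enzymes and sensors of foreign nucleic acid. In BWF1 mice sustained interferon alpha is known to speed the onset of an immune-complex nephritis, in which monocytes and macrophages gather in the kidney and tubules and glomeruli are later damaged.

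Values were log2 probe set signals from RMA (Robust Multi-array Average), so a difference of 1 is a factor of 2. Differences were tested with limma, and p-values were adjusted over 45037 probe sets. A gene is said to have risen or fallen where its adjusted p was below 0.05, and it is called where the difference was also over 2-fold. Arrays carry no read depth, and precision was limited by their number, with a median standard error of 0.16 over genes for the difference between week 5 and untreated. The correlation between arrays over all probe sets ran from 0.990 to 0.992 within week 5, from 0.984 to 0.986 among the untreated arrays and from 0.979 to 0.989 between the groups. The kidney markers were bright in both groups. Kap, an androgen-regulated protein of the proximal tubule, read 12.19 to 12.38 in the untreated and 12.29 to 12.55 in the week 5 arrays, and uromodulin (Umod) of the thick ascending limb read 10.76 to 10.97 and 10.96 to 11.19. The adrenal gene Cyp11b1 (1.15 to 1.45) and the pancreatic gene Prss2 (1.26 to 1.83) were near the bottom of the scale in all 8 arrays. The other markers taken for these tissues were not, with Star (adrenal) at 4.37 to 5.35 and Cela1 (pancreas) at 7.19 to 8.01. The fat gene Adipoq read 5.38, 7.37 and 3.41 in the untreated and 2.98 to 7.37 in the week 5 arrays. The part of neighbouring tissue in the arrays was not tested. The 3′ minus 5′ signal of beta-actin, which grows as RNA is degraded, was 1.49, 1.75 and 1.47 in the untreated and 1.97, 1.90, 1.83, 1.77 and 1.95 in the week 5 arrays, so the groups did not overlap (exact two-sided permutation p = 0.0357, the smallest that 8 arrays allow). The same measure for Gapdh did not separate them (1.51 ± 0.10, SD, n = 3, against 1.46 ± 0.08, n = 5; exact permutation p = 0.464).

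Many more genes rose than fell. At week 5, 470 of 17097 genes rose (2.75%) and 135 fell (0.79%), and the calls over 2-fold were 197 up (1.15%) and 7 down (0.0409%). The shares of 2.75% and 0.79% are the background for each list count given below for week 5 against untreated. Over all genes, 3045 of 17097 had an unadjusted limma p below 0.05, which is the background for the unadjusted list counts below. Of the 204 called genes, 183 of those up and all 7 of those down had 5 week 5 arrays beyond all 3 untreated arrays. Over all genes, the 5 arrays lay above the 3 in 6.43% and below them in 4.18%. The median difference over all genes was 0.01, and 48 of the called rises were over 4-fold and 10 over 8-fold. Without untreated replicate 2 the number of called probe sets that fell went from 23 to 65, while in the rising direction no single array moved the number by more than 1.5 times. The plot gives each array for the genes with the largest changes. Only genes whose groups did not overlap could enter it, so their separation follows from that choice.

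**Figure D1:**
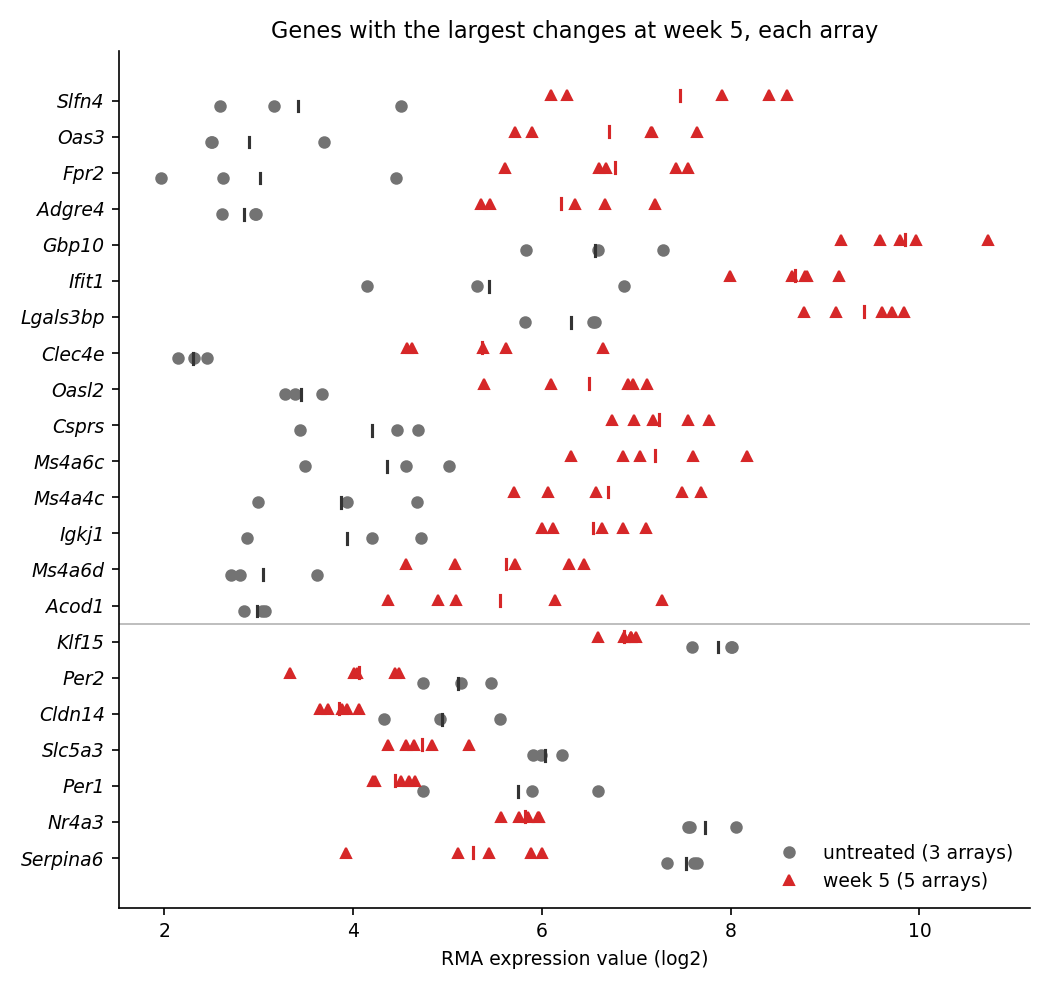
RMA expression value (horizontal axis, log2) of the 15 genes with the largest called rises and the 7 with called falls, among genes whose groups do not overlap; grey circles are the 3 untreated arrays, red triangles the 5 week 5 arrays and short vertical bars the group means. Slfn4 moved from 2.59 to 4.51 in untreated kidneys to 6.10 to 8.60 at week 5, and Serpina6 from 7.33 to 7.64 down to 3.92 to 6.0.

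Interferon-stimulated genes were broadly higher. Of 44 measured antiviral effectors, oligoadenylate synthetases and interferon-induced GTPases, 36 rose, none fell and the median difference was 1.66, against 2.75% rising and a median of 0.01 over all genes. Oas3, which senses viral RNA and makes the oligoadenylate that activates RNase L, read 2.50, 3.69 and 2.49 in the 3 untreated kidneys and 7.64, 5.71, 5.90, 7.17 and 7.16 at week 5. All 5 treated kidneys lay above the untreated ones by 2.02 or more, and the difference of means was 3.82 (SE 0.47, adjusted p = 5.85e-06). Ifit1, which binds foreign RNA ends, read 6.87, 5.31 and 4.15 against 8.81, 7.99, 8.65, 9.15 and 8.79, a difference of 3.23 (SE 0.41, adjusted p = 9.82e-06). Untreated replicate 1 was the highest of the untreated arrays for Ifit1 and also for Mx1, the myxovirus resistance GTPase (6.16 against 4.78 and 3.37), and the groups still did not overlap for either.

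All 7 oligoadenylate synthetases rose, from Oas1c at 0.75 to Oas3, with Oasl2 at 3.05, Oas1g at 2.44 and Oasl1 at 2.36 (median 2.36). Of the 25 antiviral effectors, 20 rose, led by Ifit1, Mx1 (2.57), Rtp4 (2.54) and Ifi27l2a (2.34), and 5 did not pass, with Ifitm1 at 0.27 and Mx2 at 0.63 among them. The dimmer probe set of Rtp4 gave 0.84 (adjusted p = 0.0901). Of the 12 guanylate-binding and immunity-related GTPases, which attack membranes around pathogens, 9 rose. Gbp10 (3.28), Irgm1 (2.28), Tgtp1 (2.05) and Gbp3 (2.01) were the largest and Gbp4 stood at -0.05. Without untreated replicate 3 Tgtp1 gave 1.73 (adjusted p = 0.083) and its call was lost.

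Upstream of these, 4 of 11 interferon receptor and signalling genes rose. They were Irf7, the transcription factor that amplifies interferon production (2.52, adjusted p = 2.1e-04), the feedback protease Usp18 (2.46), Stat2 (1.81) and Irf9, the DNA-binding subunit of the complex that reads the response element. Irf9 read 6.70, 6.0 and 6.26 in untreated and 7.39, 7.52, 6.59, 7.64 and 7.47 in week 5 kidneys. Week 5 replicate 3 fell inside the untreated range for this gene, and its difference of 1.00 (adjusted p = 0.0169) lost its call when untreated replicate 2 (0.0728) or 3 (0.0775) was left out. The receptor chains Ifnar1 (-0.09) and Ifnar2 (0.52) and the kinases Jak1 (-0.25) and Tyk2 (0.09) did not pass. The dimmer probe set of Stat2 gave 0.75 (adjusted p = 0.0748).

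Of 16 nucleic acid sensors 9 rose. The cytosolic RNA sensors Ifih1 (MDA5), Dhx58 (LGP2) and Ddx58 (RIG-I) rose by 1.60, 1.55 and 1.22, and Ifi204, a DNA-binding protein of the Ifi200 family, by 2.03. Ifih1 read 6.48, 6.04 and 5.43 against 7.78, 7.10, 7.48, 7.83 and 7.74. The dimmer probe sets of Dhx58 gave -0.01 and 0.0. The DNA sensor Cgas rose by 0.50, while Sting1, the adaptor that it signals through, read 3.81, 4.29 and 3.87 against 3.75, 3.89, 3.75, 3.28 and 4.29 (-0.20, adjusted p = 0.714). Ddx60 stood at 0.84 (adjusted p = 0.249), and the endosomal receptors Tlr7 (0.89), Tlr8 (-0.15) and Tlr9 (-0.28) did not pass. Zbp1, a sensor linked to necroptosis, rose by 1.40, a call lost without untreated replicate 3 (0.96, adjusted p = 0.133).

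In MHC class I presentation, 4 of 12 genes rose (median 1.04), namely H2-Q4 (1.93), H2-K1 (1.79), the transactivator Nlrc5 (1.62) and H2-T23 (1.26), and the other 8 were higher by 0.36 to 1.34 without passing. The call of Nlrc5 was lost once untreated replicate 3 was left out (1.35, adjusted p = 0.06). In class II presentation only Ctss, the cathepsin that trims the invariant chain, rose among 11 genes (1.23, adjusted p = 0.0259), with the invariant chain Cd74 at -0.05 and H2-Aa at -0.28. The call of Ctss was lost without any of untreated replicates 1 (adjusted p = 0.0826), 2 (0.0563) and 3 (0.0712) or week 5 replicates 1 (0.0824) and 4 (0.0564).

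The promoters of rising genes were examined for the letters of the response element, GAAANNGAAA, on both strands and with overlapping matches counted, in the 250 bases before each RefSeq transcription start (GRCm38.p6). Of the 36 rising effectors 26 had a promoter in the table, and 13 of these 26 (50%) held the motif, against 421 of 13605 measured genes with a promoter (3.09%) and 978 of all 32851 promoter windows (2.98%). Of the 151 called rising genes with a promoter 33 held it (21.9%). The match is a description of letters and was not tested. Gbp10 (3.28) and Oasl2 (3.05) rose more than Oas1g (2.44) and Irgm1 (2.28) but had no match or no promoter in the table. Shown first are 4 genes with large rises at week 5, picked from those that held the motif. They are the RNA-end binder Ifit1, the synthetases Oas3 and Oas1g and the GTPase Irgm1, with the motif or its reverse complement in capitals.
Ifit1, chr19:34640639-34640888, plus strand: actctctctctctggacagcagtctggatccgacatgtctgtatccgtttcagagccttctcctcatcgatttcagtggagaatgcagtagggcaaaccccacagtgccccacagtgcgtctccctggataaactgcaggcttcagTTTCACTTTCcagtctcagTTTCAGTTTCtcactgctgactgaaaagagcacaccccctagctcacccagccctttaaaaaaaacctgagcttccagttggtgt
Oas3, chr5:120777660-120777909, minus strand: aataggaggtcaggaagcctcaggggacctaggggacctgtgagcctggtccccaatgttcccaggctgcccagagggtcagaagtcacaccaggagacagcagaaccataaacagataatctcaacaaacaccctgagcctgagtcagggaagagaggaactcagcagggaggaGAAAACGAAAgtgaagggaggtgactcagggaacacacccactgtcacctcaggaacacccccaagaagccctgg
Oas1g, chr5:120887614-120887863, minus strand: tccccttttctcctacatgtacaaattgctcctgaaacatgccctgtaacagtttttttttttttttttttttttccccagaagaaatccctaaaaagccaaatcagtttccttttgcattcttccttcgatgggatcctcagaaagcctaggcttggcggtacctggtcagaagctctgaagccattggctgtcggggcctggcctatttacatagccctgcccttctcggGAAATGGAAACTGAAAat
Irgm1, chr11:48871421-48871670, minus strand: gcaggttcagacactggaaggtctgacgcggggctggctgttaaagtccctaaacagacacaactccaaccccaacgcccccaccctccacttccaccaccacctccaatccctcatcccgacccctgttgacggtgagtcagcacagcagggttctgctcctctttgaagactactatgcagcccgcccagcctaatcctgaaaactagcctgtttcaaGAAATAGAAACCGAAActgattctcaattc
Counted from the start, the 2 matches of Ifit1 lay at -104 to -95 and -85 to -76 on the antisense strand, and that of Oas3 at -75 to -66. In Oas1g 2 matches overlapped at -18 to -9 and -12 to -3, and in Irgm1 at -30 to -21 and -24 to -15.

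Genes of monocytes and macrophages were also higher, and some of them already stood above untreated at weeks 1 to 3. Of 28 measured members 15 rose (53.6%, against 2.75% of all genes), none fell and the median difference was 0.84. The median of the list was 1.39 above the untreated mean in week 5 replicate 1 and 0.73 to 0.98 in the other 4, while the untreated arrays lay between -0.04 and 0.05. Because whole kidney was measured, more cells of a type and more RNA per cell cannot be told apart here or in any other list. Clec4e (Mincle), a receptor for mycobacterial and self lipids, read 2.45, 2.31 and 2.14 in untreated and 6.65, 4.57, 4.62, 5.62 and 5.38 in week 5 kidneys. The week 5 arrays lay at least 2.12 above every untreated one, and the difference was 3.07 (SE 0.51, adjusted p = 4.31e-04). The dimmer probe set of Clec4e gave 0.37 (adjusted p = 0.278). The related lectins Clec4d and Clec4n rose by 2.28 and 1.71.

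The macrophage list holds 5 membrane proteins of the Ms4a family, and these rose, with Ms4a6c at 2.84, Ms4a4c at 2.83, Ms4a6d at 2.58, Ms4a6b at 2.50 and Ms4a7 at 2.10. At weeks 1, 2 and 3 Ms4a4c already stood 2.25, 1.74 and 2.04 above untreated, and Ms4a6c 1.73, 1.08 and 1.64. Ms4a6d stood at 1.02, 0.71 and 1.45 then. In the same weeks Clec4e stood at 0.32, 0.29 and 0.74, Cd68 at 0.20, 0.22 and 0.61 and Adgre1 at 1.28, 0.75 and 0.77. The part of the interferon response in the Ms4a rises was not tested. Cd68, a lysosomal protein of macrophages, rose by 1.55 and Adgre1, which encodes the F4/80 antigen, by 1.33. Adgre1 read 2.29, 2.37 and 2.07 against 3.96, 3.18, 3.84, 3.85 and 3.03, and its call was lost without untreated replicate 1 (adjusted p = 0.0588), untreated replicate 3 (0.101) or week 5 replicate 1 (0.0563). Other defining genes of the lineage did not pass. Csf1r, the receptor for the macrophage growth factor, read 5.19, 5.45 and 5.48 against 5.37, 5.38, 5.25, 5.42 and 5.58 (0.03, adjusted p = 0.96), Itgam stood at 0.15, Cd163 at 0.04 and Cd14 at 0.17. With the beta-actin ratio added to the model 9 of the 28 rose, and the part of RNA quality in this list was not tested beyond that.

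Several of the largest rises outside the interferon lists were phagocyte genes. Adgre4, an adhesion receptor related to F4/80, read 2.96, 2.61 and 2.97 in untreated and 7.20, 5.35, 6.35, 6.67 and 5.45 in week 5 kidneys, a difference of 3.36 (SE 0.41, adjusted p = 5.25e-06). Its dimmer probe set gave 0.85 (adjusted p = 0.0567). Fpr2, a formyl peptide receptor, read 4.45, 1.96 and 2.62 against 7.55, 5.61, 6.61, 7.42 and 6.68. Untreated replicate 1 was the highest of the untreated arrays for Fpr2 and lay 1.16 below the lowest week 5 array. Acod1, which makes itaconate in activated macrophages, rose by 2.58 (adjusted p = 0.00183), with week 5 values from 4.37 to 7.27 against 2.84 to 3.07. Among genes picked after their values were seen, Ptprc, the pan-leukocyte antigen CD45, rose from 6.05, 5.92 and 5.55 to 8.48, 7.01, 7.64, 8.20 and 7.40 (1.91, SE 0.24, adjusted p = 9.82e-06). Plek rose by 2.18, Treml4 by 1.85, the cytokine receptor subunit Csf2rb by 1.70 and Cybb, the catalytic subunit of the phagocyte oxidase, by 1.44.

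Lgals3bp, a secreted galectin-binding glycoprotein, rose by 3.11 (SE 0.28, adjusted p = 3.3e-08) and Csprs, a multicopy gene related to Sp100, by 3.05, and the other Csprs probe sets gave 0.26 and 0.25. Igkj1, an immunoglobulin kappa joining segment, read 4.20, 2.88 and 4.72 against 6.86, 6.0, 6.64, 6.12 and 7.10 (2.61, adjusted p = 0.0303). The probe set of Igkj1 is of the kind that can match several transcripts, and its call was lost without untreated replicate 1 (adjusted p = 0.0692) or 2 (0.123) or without week 5 replicate 1 (0.066), 3 (0.0564) or 5 (0.0606). Of the 204 called genes, 22 were read by a probe set whose name marks shared or cross-matching probes.

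Fewer markers of other blood cells rose, and their lists were dim. In the untreated arrays the mean level was 2.74 to 2.92 for the neutrophil list and 3.39 to 3.50 for the T and NK cell list. It was 3.35 to 3.42 for the B cell and plasma cell list, 3.82 to 3.93 for the macrophage list and 5.20 to 5.24 over all genes. RMA compresses the differences of dim probe sets, so genes that did not pass do not show that these cells were absent or unchanged. Of 16 neutrophil genes 2 rose, Slfn4 and Fpr2, which are not restricted to neutrophils, and the granule and calprotectin genes did not pass. S100a8 read 3.17, 2.76 and 3.40 against 2.66, 3.18, 3.18, 2.56 and 2.74, and Mpo, Elane, Ltf and Camp stood at -0.06, 0.11, 0.10 and -0.13. Of 21 T and NK cell genes 3 rose, the granzymes Gzma (1.27) and Gzmb (1.16) and the granule protein Nkg7 (1.05). The T cell receptor chain Cd3e read 4.54, 3.96 and 3.94 against 5.15, 4.08, 4.26, 3.53 and 4.48 (0.15), and Cd4, Cd8a and Prf1 stood at -0.08, 0.36 and -0.07. No member of that list passed without untreated replicate 1 or 3 or week 5 replicate 1. For Gzmb the adjusted p was then 0.13, 0.106 and 0.0739. Gzma also missed the threshold without untreated replicate 2 (0.0615) or week 5 replicates 4 (0.1) or 5 (0.07). None of the list rose with array weights or with the beta-actin ratio, which did not overlap between the groups, in the model (adjusted p = 0.354 for Gzma, 0.41 for Gzmb and 0.158 for Nkg7).

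Of 12 B cell and plasma cell genes 1 rose (8.33%, against 2.75% of all genes), too few to read as a result for the list. It was the lectin Cd22 (0.71, adjusted p = 0.0467), which no longer passed when any array except week 5 replicate 2 was left out. Without untreated replicate 3 its adjusted p was 0.142. Jchain, the joining chain of secreted IgM and IgA, read 4.07, 4.28 and 3.62 against 6.25, 5.06, 5.12, 4.77 and 5.64. The groups did not overlap for Jchain, yet with the spread of all weeks the difference of 1.38 did not pass (SE 0.57, adjusted p = 0.19). Cd79a, Ms4a1 and Ighm stood at -0.09, -0.00 and 0.00.

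Adhesion molecules that leukocytes use to enter tissue were higher, with 6 of 12 rising. Itgb2, the shared beta chain of the leukocyte integrins, read 2.94, 3.51 and 2.79 in untreated and 5.56, 3.89, 4.67, 5.17 and 5.42 in week 5 kidneys (1.86, SE 0.29, adjusted p = 1.78e-04). Its partner Itgal rose by 0.99, Cd44 by 1.91, the alpha 4 integrin Itga4 by 1.66 and the ligands Icam1 and Vcam1 by 1.25 and 1.09. The dimmer probe sets of Cd44 gave 1.65 (adjusted p = 0.0721), 0.44 and 0.16, none past the test. Untreated replicate 1 (6.80) lay above the lowest week 5 array (6.62) for Icam1, whose call was lost without untreated replicate 3 (0.93, adjusted p = 0.0968). The selectins Sele and Selp, each at 0.45, did not pass.

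Of 25 chemokines 5 rose, Cxcl10 (1.48), Ccl3 (1.39), Ccl9 (1.24), Ccl4 (1.17) and Ccl6 (1.00), and Ccl2, the ligand of the monocyte receptor Ccr2, stood at 0.83 without passing. Only 1 of them passed without untreated replicate 3 or without week 5 replicate 1, and 2 without week 5 replicate 4. With the beta-actin ratio in the model 2 of the 25 rose, and with array weights 1. With only the 2 groups compared Cxcl10, Ccl3 and Ccl4 missed the threshold (adjusted p = 0.103, 0.132 and 0.0892). Cxcl10 read 6.92, 4.71 and 4.69 against 7.22, 6.88, 6.40, 7.17 and 6.92, so that untreated replicate 1 overlapped the treated group, and its adjusted p of 0.0395 became 0.26 without untreated replicate 3, 0.163 without untreated replicate 2 and 0.055 to 0.0874 without week 5 replicates 1, 2, 4 or 5. The calls of Ccl9, Ccl4 and Ccl3 ended without untreated replicate 3 (0.0738, 0.0553 and 0.0872), that of Ccl4 also without untreated replicate 2 (0.183) or week 5 replicates 1 (0.0856) or 4 (0.0569), and that of Ccl9 also without untreated replicate 1 (0.0838) or week 5 replicates 1 (0.0648), 3 (0.0539) or 4 (0.0564). Among 18 cytokines and antagonists, the interleukin 1 receptor antagonist Il1rn (1.59), Il1b (1.22) and the death ligand Tnfsf10 (0.79) rose. Without untreated replicate 3 none of these 3 passed (adjusted p from 0.101 to 0.187), and 1 passed when untreated replicate 2, week 5 replicate 1 or week 5 replicate 4 was left out in turn. Il1b also missed the threshold without week 5 replicate 5 (0.0654), and Tnfsf10 without untreated replicate 1 (0.0547) or week 5 replicates 2 (0.0756) or 3 (0.065). With the beta-actin ratio in the model none of the cytokine list rose (adjusted p = 0.0861 for Il1rn, 0.165 for Il1b and 0.154 for Tnfsf10), and with array weights 1 did. The dimmer probe sets of Il1rn gave 0.17 and 0.43, and that of Ccl9 gave 0.26, none past the test. Among 12 inflammasome and cell death genes 2 rose, Casp4 and the tumour necrosis factor receptor Tnfrsf1b (1.22). Tnfrsf1b lost its call when untreated replicate 2 was left out (0.82, adjusted p = 0.118) and when week 5 replicate 1 was (0.0534), and its dimmer probe set gave -0.07. Casp4, the inflammatory caspase that binds bacterial lipopolysaccharide, rose by 2.13 (adjusted p = 1.94e-04), reading 4.27, 4.17 and 3.72 against 7.13, 5.66, 5.82, 6.27 and 6.05.

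Complement and Fc receptor genes rose in part. C4b, a component of the classical pathway, rose by 2.19 (adjusted p = 2.89e-04), the anaphylatoxin receptor C5ar1 by 1.49 and C1s1 by 0.92, which was 3 of 15 complement genes (median 0.79), and 5 rose without week 5 replicate 2. The C1q chains C1qa, C1qb and C1qc stood at 1.05, 0.57 and 0.94 without passing. The dimmer probe set of C5ar1 gave -0.10. Of 9 Fc receptor genes 3 rose, the IgG receptor Fcgr4 (1.81), the signalling gamma chain Fcer1g (1.59) and the inhibitory receptor Pirb (1.28). Fcer1g read 6.37, 5.07 and 5.82 against 8.17, 6.47, 7.22, 7.57 and 7.31. C1s1 and Pirb no longer passed without untreated replicate 1 (adjusted p = 0.116 and 0.132), untreated replicate 3 (0.136 and 0.129) or week 5 replicates 1 (0.0676 and 0.0916) or 4 (0.0815 and 0.0562). C1s1 also did not pass without untreated replicate 2 (0.0704) or week 5 replicates 3 (0.0744) or 5 (0.0847).

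**Figure D2:**
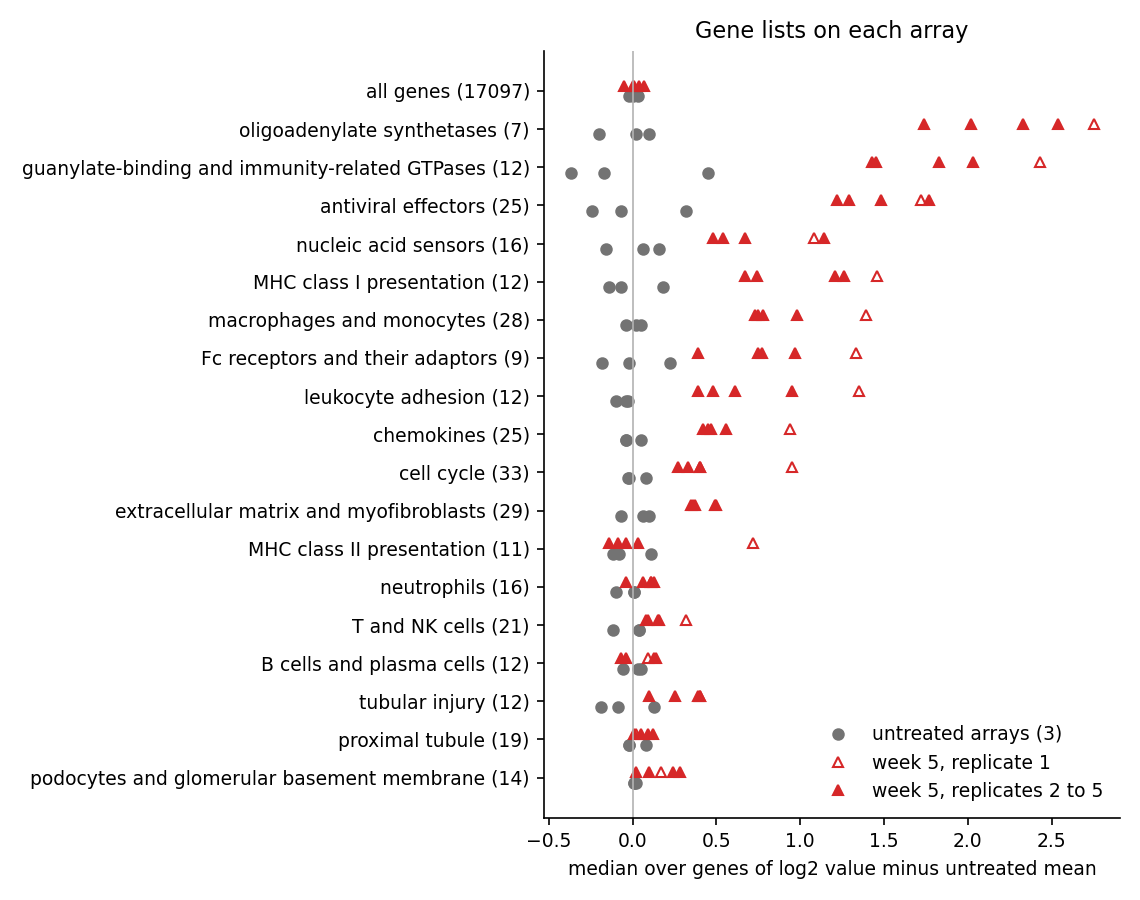
Median over the genes of each list of the log2 value minus the untreated mean (horizontal axis), on each array; the number of measured genes is in parentheses, grey circles are untreated arrays, and triangles are week 5 arrays with replicate 1 open. The oligoadenylate synthetases lie between 1.74 and 2.75 at week 5, the macrophage list between 0.73 and 1.39, and the proximal tubule list between 0.01 and 0.12.

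Genes of dividing cells were higher in part. Of 33 cell cycle genes 7 rose and the median was 0.44. Birc5, a survival protein of mitotic cells, read 4.71, 4.02 and 3.50 against 7.79, 5.69, 6.67, 6.30 and 5.81 (2.38, adjusted p = 0.00252), the spindle protein Prc1 rose by 1.92, Nusap1 by 1.74 and the topoisomerase Top2a by 1.59. Mki67 rose by 1.26, the replication licensing gene Mcm6 by 1.18 and the cyclin Ccna2 by 1.46. Week 5 replicate 1 was the highest of the 5 arrays for each of these 7, and without it 4 of the 33 rose, as was also the case without untreated replicate 3. The Top2a call was lost without untreated replicate 2 (adjusted p = 0.0671), untreated replicate 3 (0.0556) or week 5 replicate 1 (0.0565). The other probe sets of Nusap1 and Top2a gave values from -0.29 to -0.00.

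Extracellular matrix and myofibroblast genes had 4 of 29 members rising (median 0.39), the matrix protein Tgfbi (1.42), the mesenchymal filament Vim (1.21), S100a4 (1.19) and the collagen chain Col6a3 (1.14). Between 1 and 4 of the 29 rose when 1 array was left out, with 1 for untreated replicate 2 or week 5 replicate 1 left out and 2 for untreated replicate 3 or week 5 replicate 4. Without week 5 replicate 1 the adjusted p was 0.0585 for Vim, 0.0683 for S100a4 and 0.0901 for Col6a3, and Tgfbi had 0.0964 without untreated replicate 3. Leaving out untreated replicate 2 gave 0.0671 for Vim, 0.11 for S100a4 and 0.163 for Col6a3, and Col6a3 also missed the threshold without untreated replicate 1 (0.151) or week 5 replicates 3 (0.0793), 4 (0.108) or 5 (0.0577), as S100a4 did without untreated replicate 3 (0.0556) or week 5 replicate 4 (0.0564). Tnc, a matrix protein of injured tissue, read 5.38, 5.91 and 4.87 against 6.10, 6.09, 6.19, 6.22 and 6.25. The groups did not overlap for Tnc, yet with the spread of all weeks its difference of 0.78 did not pass (SE 0.35, adjusted p = 0.235). The smooth muscle actin Acta2 stood at 0.57 (adjusted p = 0.211), Timp1 at 0.09 and the collagen chain Col1a2 at -0.16, with Col1a2 between 0.97 and 1.73 in all 8 arrays, the bottom of the scale.

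Few genes of the nephron itself passed the test at this time. Standard errors came from the spread within all 7 groups, the later weeks included. The test at week 5 was therefore weaker for genes that spread widely at week 7. For example, Slc6a19 had SDs of 0.18 in untreated and 0.16 in week 5 arrays but an SE of 0.32. It was higher in 5 of 5 week 5 arrays without passing (0.59, limma adjusted p = 0.351). Of 12 tubular injury genes none rose or fell in limma (3 had an unadjusted p below 0.05) and the median was 0.24. Havcr1 (KIM-1), a receptor that injured proximal tubules express, read 7.33, 6.64 and 6.69 in untreated and 6.81, 6.93, 7.33, 7.48 and 7.23 in week 5 kidneys (0.27, SE 0.45, adjusted p = 0.818). Lcn2, the neutrophil gelatinase-associated lipocalin, read 4.37, 3.78 and 3.75 against 4.46, 3.32, 4.0, 4.21 and 4.66 (0.16, adjusted p = 0.948). The treated and untreated kidneys overlapped for both. When untreated replicate 2 was left out, or globin was added to the model, 1 of the 12 rose.

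Of 19 proximal tubule genes none rose or fell (0 had an unadjusted p below 0.05), with differences from -0.67 for Bhmt to 0.32 for the lactate transporter Slc5a12 and a median of 0.08. Miox, an inositol-degrading enzyme of the proximal tubule, read 10.63, 11.25 and 10.74 against 10.89, 10.81, 10.92, 10.98 and 11.05. Of 19 distal nephron and collecting duct genes none rose or fell in limma (4 had an unadjusted p below 0.05). The water channel Aqp2 read 4.77, 5.02 and 4.91 against 4.08, 4.42, 4.61, 4.38 and 4.20 (-0.57, adjusted p = 0.0585), lower in 5 of 5, and 1 gene of the list fell when week 5 replicate 3 was left out. The same number also fell when dim probe sets were left out, with median centring, with quantile normalization, with globin in the model and with a gene's probe sets averaged. With probe sets averaged 1 gene of the list also rose. For Umod the brighter probe set gave 0.20 (adjusted p = 0.219) and the dimmer 0.38 (adjusted p = 0.0355). Of 14 podocyte and basement membrane genes 1 rose (7.14%, against 2.75% of all genes), the receptor phosphatase Ptpro (0.62, adjusted p = 0.0253). Ptpro no longer passed without untreated replicate 1 (0.39, adjusted p = 0.249) or without week 5 replicate 1 (0.054), 3 (0.0651) or 4 (0.0557). The dimmer probe set of Ptpro gave -0.34, and the mean of both gave 0.14 (adjusted p = 0.595). Nephrin (Nphs1) stood at -0.13.

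Among 13 endothelial genes 1 fell, Flt1, a receptor for vascular endothelial growth factor, which read 8.20, 7.70 and 7.81 against 7.27, 7.51, 7.25, 6.96 and 7.38 (-0.63, SE 0.16, adjusted p = 0.0201). Flt1 no longer passed without untreated replicate 1 (-0.48, adjusted p = 0.155) or 3 (0.051) or week 5 replicate 4 (0.0575), and its other probe sets gave -0.11 and -0.06. Kdr, the other main receptor, stood at -0.09. In metabolism, Acadl of mitochondrial fatty acid oxidation rose by 0.45 and Hsd11b1, which regenerates active glucocorticoid, by 0.76. They were 1 of 12 (8.33%) and 1 of 13 (7.69%) in their lists, against 2.75% of all genes. Leaving out untreated replicate 3 (0.30, adjusted p = 0.232) or week 5 replicate 3 (0.0558) ended the call of Acadl, whose dimmer probe set gave -0.02. Hsd11b1 no longer passed when untreated replicate 1 (0.57, adjusted p = 0.173) or 3 (0.103) or week 5 replicate 1 (0.0555) was left out. None of 14 antioxidant response genes passed (2 had an unadjusted p below 0.05).

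**Figure D3:**
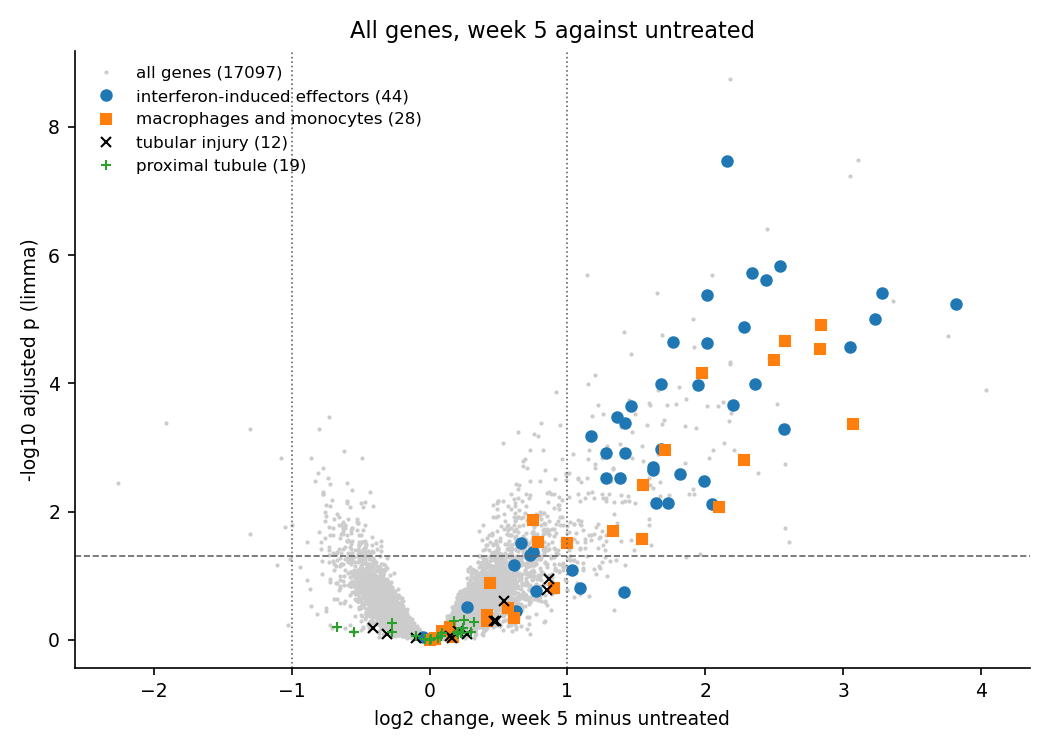
Log2 change from untreated to week 5 (horizontal axis) against minus log10 of the limma adjusted p (vertical axis) for 17097 genes in grey, with 44 interferon-induced effectors, 28 macrophage and monocyte genes, 12 tubular injury genes and 19 proximal tubule genes marked; the dashed line is an adjusted p of 0.05 and the dotted lines are 2-fold. Of the effectors 36 and of the macrophage genes 15 lie to the right above the dashed line, and no injury or proximal tubule gene lies above it.

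Only 7 genes were called as falls, and all are named here. Serpina6, the corticosteroid-binding globulin of plasma, read 7.61, 7.33 and 7.64 in untreated and 3.92, 6.0, 5.44, 5.11 and 5.88 in week 5 kidneys, 1.33 or more below the lowest untreated one (-2.26, adjusted p = 0.00359). Since this gene is known from liver, the liver genes are given beside it. Alb read 6.97, 7.15 and 7.29 against 5.99, 5.63, 9.72, 7.34 and 6.15, and Apoa1 5.38, 4.97 and 4.99 against 3.80, 3.87, 6.98, 5.03 and 4.26. Week 5 replicate 3 had the highest value of both Alb and Apoa1, and the part of liver RNA in the Serpina6 values was not tested.

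Nr4a3, an orphan nuclear receptor of the immediate early class, read 7.55, 7.57 and 8.06 against 5.85, 5.96, 5.57, 5.76 and 5.97 (-1.91, SE 0.32, adjusted p = 4.18e-04). The difference was larger than the spread within either group, which was 0.29 (SD) in the untreated and 0.16 in the week 5 arrays. The 2 dimmer probe sets of Nr4a3 gave -0.14 and 0.07, neither past the test. None of the other 16 measured immediate early genes passed, with Fos at 0.03, Egr1 at -0.17 and Nr4a1 at 0.47. Slc5a3, the transporter that loads cells with the osmolyte myo-inositol, read 6.21, 5.91 and 5.99 against 4.56, 5.23, 4.65, 4.84 and 4.37 (-1.30, adjusted p = 5.17e-04). The other 7 osmolyte and urine concentration genes did not pass, with the betaine transporter Slc6a12 at -0.22 and Nfat5, the factor that drives these transporters under salt stress, at 0.26.

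The clock genes Per1 and Per2 fell by 1.30 and 1.05. Per1 read 5.90, 4.74 and 6.59 against 4.21, 4.23, 4.66, 4.59 and 4.51, so that untreated replicate 2 came within 0.08 of the treated group. The calls of Per1 and Per2 were lost without untreated replicate 1 (adjusted p = 0.0909 and 0.061) or 3 (0.235 and 0.132), that of Per1 without week 5 replicate 1 (0.0547) and that of Per2 without week 5 replicate 4 (0.0554). The labels give no time of day for the collections. Of the other 15 clock genes none passed, with Arntl at 0.54, Dbp at 0.12 and Noct at -1.01 (adjusted p = 0.0553). Klf15, a factor induced by glucocorticoids, fell by 1.00 (7.59 to 8.01 in untreated, 6.59 to 7.00 at week 5), and Cldn14, a claudin of the thick ascending limb, by 1.08 (4.33 to 5.56 against 3.65 to 4.06). The Klf15 call was lost without untreated replicate 1 (adjusted p = 0.0779) or 3 (0.0876). With the beta-actin ratio added to the model Per1, Per2, Cldn14 and Klf15 did not pass (adjusted p from 0.0858 to 0.405), while Serpina6, Nr4a3 and Slc5a3 did.

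Globin RNA, a sign of blood left in the kidney, was 7.79, 7.89 and 8.35 in untreated and 7.96, 8.83, 8.63, 8.64 and 8.46 in week 5 arrays (exact permutation p = 0.0714). The erythroid gene Alas2 stood at 1.11 (adjusted p = 0.0803) and none of 4 erythroid genes passed (2 had an unadjusted p below 0.05). With globin added to the model 107 of 500 measured list genes rose at week 5, against 111 without it. With the beta-actin ratio in its place 80 rose, and the single risers Ctss, Cd22, Ptpro, Acadl and Hsd11b1 of their lists and the single fall Flt1 did not pass (adjusted p from 0.0715 to 0.323).

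Week 5 was next set against the collections on either side. The differences in those comparisons use no untreated array, although the untreated arrays count in the spread that limma pools. All share the week 5 arrays with the comparison above, so values are given side by side. Against week 3, 5 of 17097 genes rose (0.0292%) and 0 fell (0.0%) in limma, with 503 genes higher and 402 lower at an unadjusted p below 0.05. The 5 were Adgre4, Ear3, Bcl2a1a, Itga4 and Sox7. Adgre4 read 3.31, 4.81, 4.65, 4.51 and 3.11 at week 3, below every week 5 array (difference 2.13, SE 0.36, adjusted p = 0.0123). Ear3, an eosinophil-associated ribonuclease, rose by 1.76 (SE 0.27, adjusted p = 0.0092), and Itga4 by 1.56 (adjusted p = 0.0123). Bcl2a1a, an anti-apoptotic gene of leukocytes, rose by 1.57 (adjusted p = 0.0226), and the endothelial factor Sox7 by 1.08 (adjusted p = 0.0467); both were named after their values were seen, since their week 3 and week 5 arrays overlapped. Ear3 and Bcl2a1a have near-identical gene copies and are read by probe sets that can match several of them. Between 0 and 37 probe sets were called when 1 array was left out, against 6 with all, with 0 without week 5 replicate 4 and 37 without week 5 replicate 2. Adgre4 had an adjusted p of 0.0797 without week 3 replicate 1, 0.108 without week 3 replicate 5, 0.0992 without week 5 replicate 1 and 0.0964 without week 5 replicate 4. Ear3 had 0.0565 without week 5 replicate 4. Itga4 had 0.0563 to 0.0797 without week 3 replicates 1, 3 or 5, and 0.0565 to 0.0992 without week 5 replicates 1, 4 or 5. With only the 2 groups compared none of the 3 passed (adjusted p = 0.129 for Adgre4, 0.0936 for Ear3 and 0.113 for Itga4). The dimmer probe set of Adgre4 gave 0.72 (adjusted p = 0.593) and that of Ear3 1.74 (adjusted p = 0.1), and the 4 others of Itga4 gave -0.08 to 0.61, none past the test.

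The median of the macrophage list was higher at week 5 than at week 3, and that of the interferon-induced effectors was lower. The macrophage list had medians of 0.20, 0.10, 0.34, 0.84, 1.57 and 1.84 above untreated at weeks 1, 2, 3, 5, 7 and 9, and leukocyte adhesion had -0.06, -0.14, 0.06, 0.72, 0.87 and 0.75. The interferon-induced effectors had 2.40, 1.89, 2.15, 1.66, 2.42 and 1.83. These weekly values share the untreated arrays, and between weeks 5 and 3 none of the 28 macrophage genes and none of the 44 effectors passed, and 1 of the 12 adhesion genes, Itga4, did. Of the 197 called rises 114 were over 2-fold above untreated in at least 1 of weeks 1 to 3 and 83 were not. The response element letters were in the promoters of 27 of 84 genes of the former set (32.1%) and 6 of 67 of the latter (8.96%), counting genes with a promoter in the table, and the sets were made from these data, so the shares are given without a test. Of the 15 macrophage and monocyte genes that rose, 12 had a promoter in the table and 0 held the letters. The promoter of Cybb, a phagocyte gene outside that list and in the set of 83, held 3 matches, shown in capitals and picked after its letters were seen.
Cybb, chrX:9469325-9469574, minus strand: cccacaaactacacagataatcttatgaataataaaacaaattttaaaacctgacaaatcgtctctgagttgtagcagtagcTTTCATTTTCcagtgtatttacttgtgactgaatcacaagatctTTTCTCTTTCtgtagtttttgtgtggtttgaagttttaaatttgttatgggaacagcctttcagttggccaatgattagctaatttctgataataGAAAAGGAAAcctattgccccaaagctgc

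**Figure D4:**
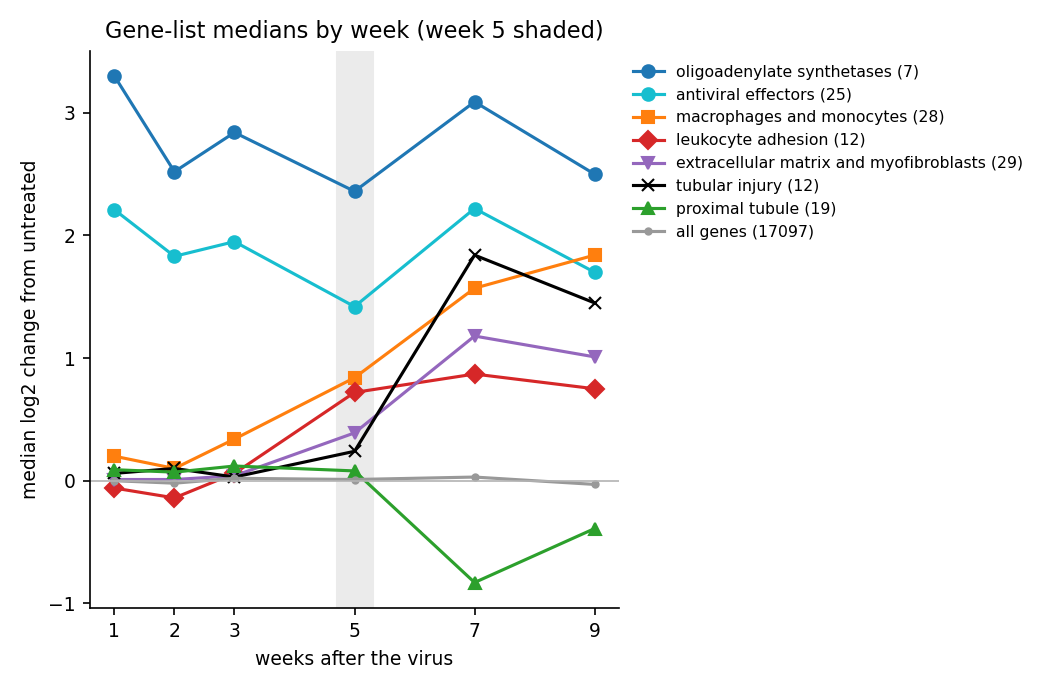
Median log2 change from the untreated kidneys (vertical axis) of 7 gene lists and of all genes by weeks after the virus (horizontal axis), with the number of genes in parentheses and week 5 shaded. At week 5 the macrophage list stands at 0.84 and the antiviral effectors at 1.42, while tubular injury stands at 0.24 and reaches 1.84 at week 7.

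From week 5 to week 7, 1027 genes rose (6.01%) and 945 fell (5.53%), of which 167 and 178 by over 2-fold. Tubular injury genes, of which none had passed at week 5, rose in 11 of 12 cases (median 1.41). Havcr1 rose by 2.54 (adjusted p = 2.03e-04) and Lcn2 by 4.17 (adjusted p = 4.32e-04). Lcn2 read 9.55, 9.93, 8.53, 4.30 and 9.21 at week 7, so week 7 replicate 4 stayed within the week 5 range of 3.32 to 4.66. Without that array 526 probe sets were called up and 499 down, against 307 and 295 with it. Globin signal was 8.49, 6.69, 6.32, 8.74 and 7.11 in week 7 replicates 1 to 5, against 7.96 to 8.83 at week 5. Hba-a1 was lower at week 7 by 2.22 (limma adjusted p = 0.00726). With globin as a covariate 143 probe sets were called up and 108 down from week 5 to week 7. The part of blood content in these changes was not tested.

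Among the other large rises from week 5 to week 7 were the glucuronosyltransferase Ugt2b37 (3.38), the neutrophil chemokine Cxcl1 (3.02), the diamine oxidase Aoc1 (2.75) and Serpina10 (2.62). At week 5 the same genes stood at 0.39, 0.72, -0.01 and -0.04 from untreated, none past the test. Of the proximal tubule genes 15 of 19 fell between weeks 5 and 7 (median -1.02), and the peptidase Dpep1 (-2.16) and the amino acid transporter Slc6a19 (-1.86) were among the largest falls, with Igfbp1 (-2.83), Ces1e (-2.42) and Clec2h (-2.28). Dpep1 read 7.10, 7.10 and 6.99 in untreated and 8.31, 7.92, 8.19, 8.05 and 7.86 in week 5 kidneys, higher in 5 of 5. With the spread of all weeks the difference of 1.00 did not pass (SE 0.39, limma adjusted p = 0.167). At week 7 Dpep1 ran from 4.14 to 7.77. Of the genes that fell at week 5, Nr4a3 rose again by 1.19 (adjusted p = 0.00511), Per1 by 1.54 (adjusted p = 7.2e-04) and Per2 by 0.96 (adjusted p = 0.00479), whereas Serpina6 fell by a further 1.69 (adjusted p = 0.00557) and Slc5a3 stood at -0.08. MHC class II genes, with 1 of 11 rising at week 5, had 5 of 11 rising from week 5 to week 7, and matrix genes had 14 of 29. Timp1 rose by 2.13 (adjusted p = 7.37e-04), Cebpd by 1.96 (adjusted p = 1.47e-04) and Tnc by 1.11 (adjusted p = 0.0177) in that interval.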

How the data were processed

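Kidney RNA was hybridized to Affymetrix HT-MG-430 PM arrays, 1 array per sample. Per the labels and the study's methods, the authors normalized probe intensities by RMA, and the deposited table holds the resulting log2 values of 45141 probe sets on 33 arrays; the submitters' processing notes list RMA and Partek and give no version. No genome build is given in the sources used here. RMA sets all arrays to 1 distribution, so changes are relative to the other genes of an array, and it compresses the differences of dim probe sets. The 104 control probe sets were left out, and 28898 of the rest carried 1 gene symbol, 551 several and 15588 none in the platform annotation. Each of 17097 genes was read by the probe set with the highest mean over the 33 arrays. Genes on lists without such a probe set (75 symbols) were not analysed here.

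All 33 arrays were fitted in limma 3.58.1 (R 4.3.3) with 7 group means and 26 residual degrees of freedom, and p-values were Benjamini-Hochberg adjusted over 45037 probe sets. Calls needed an adjusted p below 0.05 and over 2-fold. On simulated data for week 5 against untreated, run on 45037 probe sets, the fit recovered 40% of 1.5-fold, 78% of 2-fold and 100% of 4-fold changes. The changes were placed only in probe sets with a mean over 5, with independent normal noise. Recovery needed an adjusted p below 0.05 but not the 2-fold rule. The rates therefore do not cover dimmer probe sets or the rule for calls. Array measures were compared by exact permutation of 8 arrays (56 splits; scipy). Members and lists were chosen with earlier results of these data known, and so was the comparison. Genes were named by rule: the 15 largest called rises and up to 15 falls without overlap, up to 4 rising or falling members of each of 32 lists, 5 per direction for the neighbouring weeks, genes of the study's text, and tissue markers; further list members are given for contrast, and genes outside the lists and the rule are marked as picked after their values were seen. Promoter sequences are from RefSeq (GRCm38.p6). Alternatives were the 2 groups alone, array weights, dim probe sets left out, median centring, quantile normalization, an intensity trend with robust prior, the beta-actin ratio or globin as covariate, a replicate block, averaging the probe sets of a gene, no fold threshold, and leaving out each array.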

Additional observations from a re-analysis of the deposited data

Results flagged for a closer look

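The 124 named genes and the 32 list medians were examined on the 5 week 5 arrays, and 13 further sets of 5 arrays were those of genes named for the week 3 and week 7 comparisons. Of these 169 sets of values, 11 had 1 array whose gap to the nearest other array was a larger part of the group's range than Dixon's 95% critical value of 0.71 allows, and chance alone gives this in about 5% of groups. Week 5 replicate 1 was the array that stood apart in 6 of them. Its value of Prc1, a spindle protein, was 7.52 against 5.84 to 6.13 in the other 4. Its median change over the cell cycle genes was 0.95 against 0.27 to 0.40, over the chemokines 0.94 against 0.42 to 0.56, and over the MHC class II genes 0.72 against -0.14 to 0.03. It was low for the fat cell gene Adipoq, with 2.98 against 6.37 to 7.37, and for Igfbp1, with 10.05 against 10.41 to 10.54. Week 5 replicate 2 was low for the complement genes, with a median change of 0.21 against 0.79 to 1.02. Week 5 replicate 3 was low for Irf9, with 6.59 against 7.39 to 7.64. Week 5 replicate 5 was high for the chemokine Cxcl1, with 5.51 against 4.25 to 4.57, and low for the thick ascending limb transporter Slc12a1, with 10.43 against 10.72 to 10.83. Week 7 replicate 4 was low for Cxcl1, with 5.99 against 7.86 to 8.40.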

How the results depend on the processing

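No named gene past the threshold changed direction under any of the 18 settings tried for week 5 against untreated, and 43 of the 80 named genes past the threshold stayed past it under all of them. The called probe sets were 302 up and 23 down, 833 and 499 with no fold threshold, and 235 to 350 up and 17 to 65 down when 1 array was left out. Members of lists that rose numbered 111, with 74 to 112 under all settings, and those that fell numbered 6, with 3 with array weights, 3 with the beta-actin ratio in the model and 3 to 9 when 1 array was left out. Week 5 against week 3 depended most on the setting, with 6 probe sets called up, 1 with only the 2 groups compared, 21 with array weights, 3 without dim probe sets and 0 to 37 when 1 array was left out. Week 7 against week 5 had 307 up and 295 down, 143 and 108 with globin as a covariate, 2126 and 1698 with no fold threshold, and 206 to 526 up and 212 to 499 down when 1 array was left out. The causes of these shifts were not tested. Groups share replicate numbers, but same-numbered untreated and week 5 arrays did not deviate together (correlations 0.0436, -0.02 and 0.0418), so the numbers were not taken as pairs; with a replicate block 289 probe sets were called up and 24 down at week 5 against untreated, 8 up against week 3, and 308 up and 294 down from week 5 to week 7. Beta-actin ratio and group cannot be told apart fully, since the ratio did not overlap between groups. RMA compresses the differences of dim probe sets.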
